A study of Mus musculus with 6 samples.

Results

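Growth factors for macrophages and mast cells and the receptors that bind them were described in sorted stromal cells of the mouse gut. The genes were Csf1, Il34, Csf2, Csf3, Kitl, Csf1r and Kit, which were chosen by name and are 7 of the 33696 genes counted. Cells were live, tdTomato+ and taken from the lamina propria of young adult C57BL/6 Flare-TSLP mice of both sexes, housed without specific pathogens and given no treatment that the labels name. In this line a flox-and-reporter cassette with the red fluorescent protein tdTomato sits in the 3′ untranslated region of Tslp, and the line was derived from 1 targeted embryonic stem cell clone. All libraries carry that allele, all were sorted as tdTomato+, and no library of tdTomato-negative cells was analysed here. The proximal small intestine (jejunum) and the distal small intestine (ileum) gave 2 libraries each, and the cecum and large intestine 1 each. These last 2 are called the large bowel here. Each library pooled cells under 3 hashtags that were not paired with mice in the sources used here, so that 1 library was 1 sample. The p-values measure the spread between libraries, which in large bowel comparisons includes differences between the regions joined.

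CSF1 and IL-34 are secreted proteins that bind the same receptor tyrosine kinase, CSF1R, which monocytes and tissue macrophages carry and need for survival and growth. KIT ligand, also called stem cell factor and encoded by Kitl, is made as membrane-bound and soluble forms and binds KIT, the receptor on mast cells and their precursors, on interstitial cells of Cajal (the pacemaker cells of the gut) and on blood progenitors. CSF2 (GM-CSF) and CSF3 (G-CSF) are cytokines of granulocytes and other myeloid cells, made by activated lymphocytes, stroma and endothelium. In the gut wall, fibroblasts, pericytes and endothelial cells lie beside the macrophages and mast cells that respond to these factors.

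In the mouse assembly GRCm39, Csf1 (ENSMUSG00000014599) lies on the minus strand at chr3:107648364-107667806, Il34 (ENSMUSG00000031750) on the minus strand at chr8:111423928-111532584 and Kitl on the plus strand at chr10:99851492-99936278. Csf2 lies on the minus strand at chr11:54138097-54140493 and Csf3 on the plus strand at chr11:98592089-98594458. Kit lies on the plus strand at chr5:75735576-75817404, and Csf1r lies on chromosome 18. UMIs, the tags that mark single captured transcripts, were counted over whole genes.

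Between 11175 and 19367 cells were kept per library, 93912 in all, with a median of 6602 to 9234 UMIs per cell. Each cell was put into a class by how many markers of that class it expressed, and none of the genes described is a marker. However, Cxcl14 and Itga8, markers of the subepithelial-like gate, were already known in these data to mark a fibroblast subset together with Il34. That gate is therefore not independent of Il34. Fibroblast-like cells numbered 73091 and lymphatic endothelial (LEC)-like cells 15478. Blood endothelial-like cells numbered 1236, smooth muscle-like cells 900, pericyte-like cells 507, T cell or ILC-like cells 338 and macrophage-like cells 198. No cell reached the mast cell gate. Of its 8 markers, the proteases Mcpt1, Mcpt4 and Tpsb2 had 0 UMIs over all kept cells, Mcpt2 and Ms4a2 had 1 each, Cma1 had 24 and Cpa3 406 (6 in endothelial classes), and Hdc, the histamine-forming enzyme, had 1448 (1050 in endothelial classes). The fibroblast-like cells were split into trophocyte-like (31250 cells, by Ackr4, Grem1, Dkk2, Rspo3, C3 and Cd34), subepithelial-like (9208, by Foxl1, Procr, Agt, Nrg1, Wnt4, Lrat, Ntf3, Frmd5, Itga8 and Cxcl14), telocyte-like (5312), universal-like (4611, by Pi16, Dpp4 and like genes), Adamdec1+ (14010) and other fibroblast-like cells (8700), the rest that met no subset gate. The summed level of the 8 LEC markers was 17388 to 22792 CPM in LEC-like cells and 42.6 to 204 CPM in fibroblast-like cells. Levels are counts per 1000000 (CPM), that is, UMIs of the gene over all UMIs of that class and library, and a class was compared only where it had at least 50 cells. Free RNA, read from barcodes of up to 100 UMIs, carried 2.90% to 3.82% of the UMIs of a library, and between 38 and 118 barcodes were shared by any 2 libraries. The tdTomato transcript gave 301 to 1081 UMIs in a library, so the reporter cannot show which class a sorted cell was gated for.

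The 3 stromal ligands Csf1, Il34 and Kitl were found mostly in fibroblast-like cells, which held 93.1% of 100180 Csf1 UMIs, 91.5% of 51845 Il34 UMIs and 92.4% of 199819 Kitl UMIs, beside 80.7% of the UMIs of all genes. Csf1 was spread over all fibroblast subsets. Il34 had its highest mean levels in pericyte-like and subepithelial-like cells. In the cecum and large intestine, however, subepithelial-like cells (103 and 137 CPM) were close to telocyte-like cells (84.5 and 139 CPM). Kitl was highest on average in blood endothelial-like cells. By level, Csf1r was highest in the few macrophage-like cells. Kit was highest in T cell or ILC-like cells among the classes compared. It was also found in endothelial cells, in epithelial-like cells of the large intestine, in macrophage-like cells and in some of the few dendritic cells. Csf2 and Csf3 gave 149 and 146 UMIs in all 93912 cells.

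**Figure D1:**
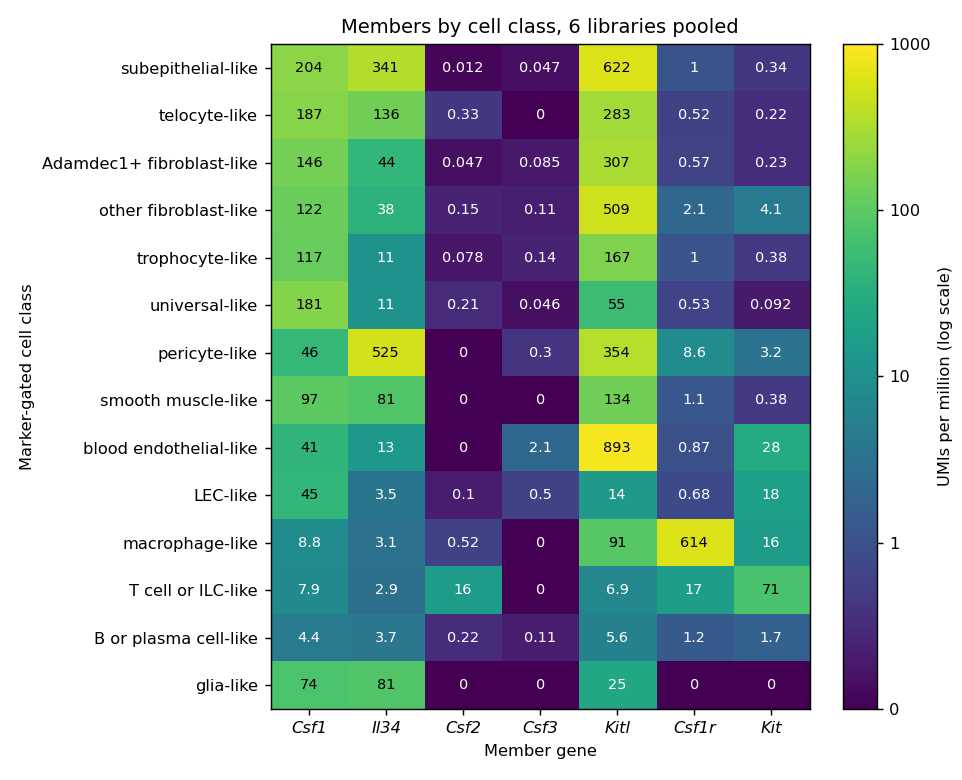
Heat map of the pooled level of each gene (columns) in each cell class (rows), in CPM on a log color scale, over all 6 libraries. Csf1r is at 614 CPM in macrophage-like cells and 0.983 CPM in fibroblast-like cells.

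Csf1, the growth factor that circulates and also acts locally on macrophages, was highest in subepithelial-like fibroblasts, the cells under the epithelium. There its level was 226 and 154 CPM in the proximal replicates, 282 and 179 CPM in the distal ones, 245 CPM in the cecum and 215 CPM in the large intestine. In trophocyte-like cells, which lie in the deeper mucosa around the crypts, it was 117, 106, 124 and 111 CPM in the same small intestinal libraries, 187 CPM in the cecum and 142 CPM in the large intestine. In the cecum 439 of 541 trophocyte-like cells, and in the large intestine 325 of 558, had no more markers than their gate needs. This held for 2170 of 7077 and 1723 of 5564 proximally and 4785 of 12061 and 2305 of 5449 distally. Subepithelial-like cells were above trophocyte-like cells in 6 of 6 libraries, although the ranges of the 2 classes overlapped. The difference was 0.52 ± 0.10 on the log2 scale (SE, n = 6 libraries; adjusted p = 0.0041, edgeR quasi-likelihood test). In this comparison 3 of the 5 genes tested passed, all of them higher, and 48.5% of the 16608 genes tested were called, 24.5% as higher. Without the library as a block the Csf1 difference was 0.51 with an adjusted p of 0.0795.

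The other fibroblast subsets followed closely. Mean Csf1 levels were 165 ± 38.2 CPM in telocyte-like, 161 ± 22.2 CPM in universal-like, 142 ± 37.5 CPM in Adamdec1+ and, in trophocyte-like cells, 131 ± 30.0 CPM (SD over 6 libraries each). The other fibroblast-like cells had 110 ± 27.0 CPM and smooth muscle-like cells 109 ± 49.7 CPM. Each class in this order overlapped with the next, from subepithelial-like down to smooth muscle-like cells. The next step did not overlap, since LEC-like, pericyte-like and blood endothelial-like cells had 47.9 ± 7.97 (n = 6), 47.6 ± 16.2 (n = 4) and 47.2 ± 14.4 CPM (n = 5). The level of Csf1 in free RNA, at 92.6 to 181 CPM, was above that of LEC-like, pericyte-like and blood endothelial-like cells in every library compared. Macrophage-like cells, the cells that CSF1 acts on, held 17 Csf1 UMIs in 198 cells.

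LEC-like cells had less Csf1 than fibroblast-like cells in every library, at 41.0 to 62.8 CPM against 117 to 195 CPM. The difference was -1.63 ± 0.10 on the log2 scale (n = 6; adjusted p = 1.77e-06, edgeR). Of the 7 genes tested between these classes, 5 passed, 2 higher and 3 lower in LEC-like cells, where 64.7% of all 20164 genes were called, 27.4% higher and 37.2% lower. Blood endothelial-like cells differed from fibroblast-like cells by -1.68 ± 0.16 (n = 5; adjusted p = 6.77e-06) and pericyte-like cells by -1.81 ± 0.16 (n = 4; adjusted p = 1.99e-06). Smooth muscle-like cells had less Csf1 than fibroblast-like cells by -0.63 ± 0.12 (n = 6, lower in 6 of 6; adjusted p = 0.00156), and without the library as a block by -0.52 with an adjusted p of 0.16. The share of genes called was 55.6%, 25.7% and 35.9% in these 3 comparisons. All comparisons with fibroblast-like cells use the same fibroblast-like sums.

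Il34, whose product shares the receptor of CSF1, had its 2 highest mean levels in pericyte-like and subepithelial-like cells. In subepithelial-like fibroblasts it reached 603 and 245 CPM in the proximal replicates, 626 and 417 CPM in the distal replicates, 103 CPM in the cecum and 137 CPM in the large intestine. The small intestinal libraries were all above the 2 large bowel libraries. In pericyte-like cells, which wrap small vessels, it was 492 CPM in proximal replicate 2, 436 CPM in distal replicate 2, 570.4 CPM in the cecum and 557 CPM in the large intestine, the libraries with at least 50 of them. The libraries with fewer had 642 CPM (proximal replicate 1, 43 cells) and 537 CPM (distal replicate 1, 10 cells), so that the large bowel lay within the range of the small intestine, and regions were not tested in this class.

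Trophocyte-like cells had little Il34, at 5.96 and 4.12 CPM in the proximal replicates, 15.9 and 15.3 CPM in the distal replicates, 39.5 CPM in the cecum and 15.8 CPM in the large intestine. Subepithelial-like cells were above them in 6 of 6 libraries without overlap, by 4.47 ± 0.75 on the log2 scale, a fold of 22.1 (adjusted p = 0.00215, edgeR). Their gate uses Cxcl14 and Itga8, known beforehand in these data to go with Il34, so this p-value is not an independent test. The difference was 3.66 with doublets left in, 5.11 with stricter gates and 5.39 in the 4 small intestinal libraries, past the threshold each time. With 10% of each sum subtracted along the free RNA, 0 Il34 UMIs were left in the trophocyte-like cells of proximal replicate 1 and 44 in those of proximal replicate 2, and no fold is given. In cells thinned to 2500 UMIs each, between 19.2% and 70.0% of subepithelial-like cells had an Il34 UMI, against 0.86% to 7.51% of trophocyte-like cells and 0.0564% to 1.02% of LEC-like cells. The level of Il34 in free RNA, at 34.4 to 67.9 CPM, was above that of trophocyte-like cells and of LEC-like cells in every library.

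Pericyte-like cells had more Il34 than fibroblast-like cells in the 4 libraries compared, by 2.70 ± 0.18 on the log2 scale (adjusted p = 1.54e-07, edgeR). The summed level of the 8 fibroblast markers was 1912 to 5541 CPM in pericyte-like cells and 22459.7 to 32599 CPM in fibroblast-like cells. In this comparison 3 of the 5 genes tested passed, 2 higher and 1 lower, and 10.6% of all genes were called higher and 15.1% lower. Telocyte-like cells, gated by Bmp7, Bmp3, Lgr5, Wnt5a and like genes, had 266, 131, 129, 164, 84.5 and 139 CPM in the proximal, distal, cecum and large intestine libraries in that order. They were above the sum of all fibroblast-like cells other than telocyte-like, called non-telocyte cells here, in 6 of 6 libraries, by 1.03 ± 0.17 (adjusted p = 0.00177), although the ranges overlapped. This was the 1 gene of 6 tested that passed in telocyte-like cells, where 24.9% of 19253 genes were called, 10.1% higher and 14.8% lower.

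Lower on the scale stood smooth muscle-like cells with 84.1 ± 15.8 CPM, Adamdec1+ cells with 40.6 ± 27.4 CPM, other fibroblast-like cells with 35.0 ± 14.4 CPM and universal-like cells with 9.46 ± 4.94 CPM (SD, n = 6 each). Neighbors in this order overlapped between libraries. LEC-like cells had 0.785 to 4.66 CPM, which was below fibroblast-like cells by -4.48 ± 0.20 on the log2 scale (adjusted p = 2.27e-07) and by -2.99 with doublets left in. With 10% of free RNA subtracted, 0 Il34 UMIs were left in the LEC-like cells of any library, so that no fold is given there. Blood endothelial-like cells were below fibroblast-like cells by -3.44 ± 0.48 (n = 5; adjusted p = 0.000142), but proximal replicate 1 stood apart with 29.9 CPM against 0.866 to 2.42 CPM in the other 4 libraries. Its 114 UMIs came from 46 of 521 cells. The summed level of the 8 pericyte markers in blood endothelial-like cells was also highest in that library, at 596 CPM against 168 to 414 CPM, and its part in the Il34 value was not tested. Without that library the difference was -5.49, without the large intestine -2.81 and with DESeq2 -4.54, past the threshold each time. With free RNA subtracted, the 88 Il34 UMIs left were all in proximal replicate 1, so that no fold is given.

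Kitl was highest on average in blood endothelial-like cells, the lining of blood vessels. They had 940.0, 929.9, 783 and 946 CPM in proximal replicates 1 and 2 and distal replicates 1 and 2, and 719 CPM in the large intestine. Fibroblast-like cells had 326, 279, 228 and 345 CPM in those small intestinal libraries, 364 CPM in the large intestine and 181 CPM in the cecum. Blood endothelial-like cells were thus above fibroblast-like cells in all 5 libraries without overlap, by 1.42 ± 0.12 on the log2 scale (adjusted p = 2.47e-06, edgeR). Among the 6 genes tested there, 3 passed as higher and 2 as lower, where 20.8% of all genes were called higher and 34.8% lower. Once thinned to 2500 UMIs, 71.1% to 77.8% of blood endothelial-like cells had a Kitl UMI, against 1.76% to 3.65% of LEC-like cells.

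The lymphatic endothelium lay at the other end of the scale. LEC-like cells had 16.4, 11.3, 13.8, 17.1, 8.64 and 19.0 CPM in the proximal, distal, cecum and large intestine libraries, which was below the free RNA of each library, at 125 to 259 CPM. They were below fibroblast-like cells by -4.36 ± 0.09 on the log2 scale in 6 of 6 libraries (adjusted p = 1.47e-08) and by -3.19 with doublets left in. No Kitl fold is given with 10% of free RNA subtracted, since 0 UMIs were left in LEC-like cells.

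Blood endothelial-like cells overlapped in Kitl with the next class, the subepithelial-like cells, which had 844 and 629 CPM in the proximal replicates, 798 and 730.1 CPM in the distal replicates, 294 CPM in the cecum and 394 CPM in the large intestine. Trophocyte-like cells had 152, 137, 175, 213, 112 and 153 CPM in the same order. Subepithelial-like cells were higher in 6 of 6 libraries without overlap, by 1.70 ± 0.16 on the log2 scale, a fold of 3.24 (adjusted p = 0.000121). Cells with a UMI of Il34 in the subepithelial-like class mostly also had one of Kitl, such as 1296 of 1324 in proximal replicate 1, where 1541 of all 1583 cells had a Kitl UMI, and 373 of 426 in the large intestine, where 725 of 874 did.

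The other fibroblast-like cells varied most, with 906 and 639 CPM of Kitl in the proximal replicates, 261 and 504 CPM in the distal replicates, 189 CPM in the cecum and 773 CPM in the large intestine. In the large intestine 1 cell of that class held 143 Kitl UMIs. Mean levels were 330 ± 70.8 CPM in pericyte-like (n = 4), 310 ± 47.4 CPM in Adamdec1+, 278 ± 44.9 CPM in telocyte-like, 125 ± 47.1 CPM in smooth muscle-like and 73.3 ± 27.4 CPM in universal-like cells (SD, n = 6 each unless given). Neighbors in this order overlapped between libraries. Smooth muscle-like cells were below fibroblast-like cells by -1.35 ± 0.16 on the log2 scale in 6 of 6 libraries (adjusted p = 3.41e-05), and here 2 of the 5 genes tested passed, both lower, against 13.8% of all genes called higher and 22.1% lower. Pericyte-like cells differed from fibroblast-like cells in Kitl by 0.10 ± 0.15 (95% interval -0.21 to 0.40, adjusted p = 0.698) and telocyte-like cells from non-telocyte cells by -0.20 ± 0.08 (adjusted p = 0.119). The last value passed the threshold without a filter on low counts, at -0.30 (adjusted p = 0.0379), and with 1 more marker needed in the gates, at -0.59 (adjusted p = 0.00205), and over its alternatives the adjusted p reached up to 0.552. Macrophage-like cells held 176 Kitl UMIs in 198 cells, 91.2 CPM, a level below that of free RNA in all 6 libraries.

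**Figure D2:**
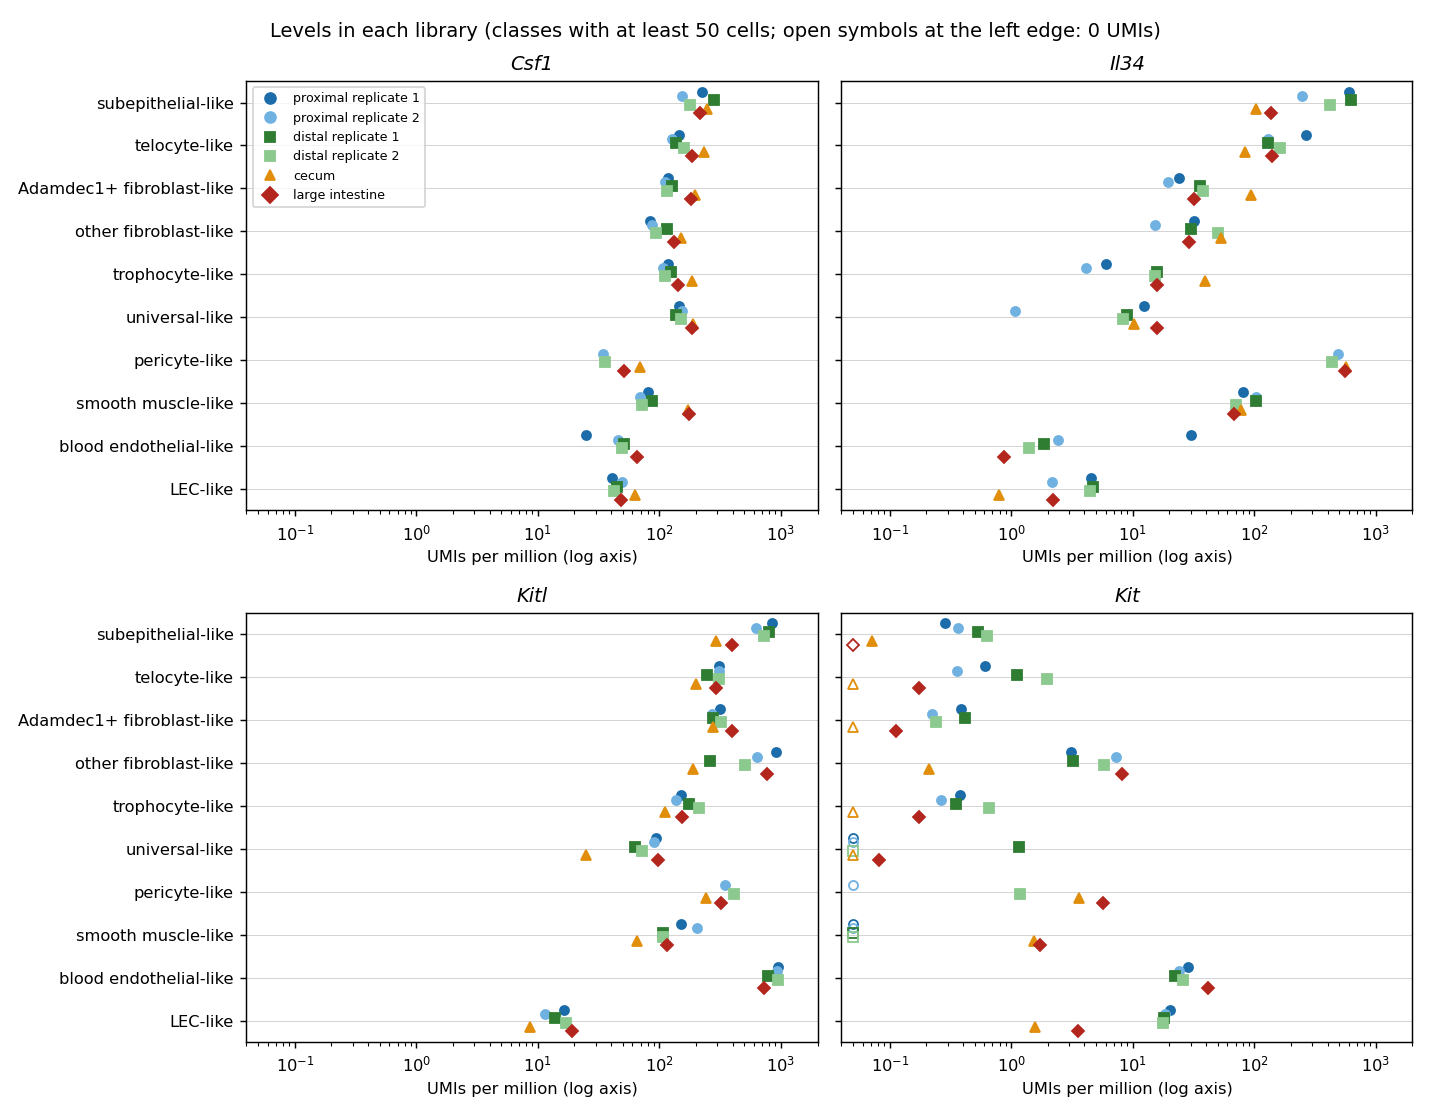
Level of Csf1, Il34, Kitl and Kit (1 panel each) in 10 cell classes, in CPM on a log axis, with 1 point per library and open symbols at the left edge for 0 UMIs. Kitl in blood endothelial-like cells lies between 719 and 946 CPM in the libraries compared, above LEC-like cells at 8.64 to 19.0 CPM, while Il34 in subepithelial-like cells spreads from 103 to 626 CPM.

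Csf1r, the receptor of CSF1 and IL-34, was high in macrophage-like cells, which were gated on C1qa, C1qb, C1qc and like genes. In distal replicate 1, the library with at least 50 of these cells, its level was 685 CPM, and 50 of 55 cells had a UMI. The libraries with fewer cells had 604 CPM (49 cells) and 591 CPM (33 cells) in the proximal replicates, 593 CPM (34 cells) in distal replicate 2, 965 CPM (6 cells) in the cecum and 530.1 CPM (21 cells) in the large intestine. Fibroblast-like cells had 0.633 to 1.52 CPM. At 2500 UMIs per cell, 66.4% to 87.6% of macrophage-like cells and 0.148% to 0.304% of fibroblast-like cells had a Csf1r UMI.

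Since 1 library reached 50 macrophage-like cells, the planned test against fibroblast-like cells could not be fitted. With at least 20 cells instead, 5 libraries entered and Csf1r was higher in macrophage-like cells by 9.26 ± 0.24 on the log2 scale (adjusted p = 2.23e-15, edgeR), where 43.2% of 18613 genes were called. In the same fit Kit was also higher, by 4.16 ± 0.73 (adjusted p = 0.000101). Csf1, Il34 and Kitl were lower, by -4.09 ± 0.31, -4.67 ± 0.40 and -1.78 ± 0.20, past the threshold each time. Csf2 did not pass (2.03, adjusted p = 0.376), and Csf3 was not tested. The macrophage-like cells were 198 of 93912 cells sorted as tdTomato+, which limits them as a picture of the macrophages of the tissue. In pericyte-like cells Csf1r gave 4, 11, 0 and 9 UMIs in proximal replicate 2, distal replicate 2, the cecum and the large intestine. This was above fibroblast-like cells in 3 of 4 libraries, by 3.14 ± 0.68 (adjusted p = 0.00371). Csf1r in free RNA was at 2.96 to 8.07 CPM, above fibroblast-like cells in every library and above pericyte-like cells in the cecum. With free RNA subtracted the difference also passed (adjusted p = 0.0111), with 3 Csf1r UMIs left in the fibroblast-like cells of the large intestine, and no fold is given. As many as 5 of these UMIs lay in 1 cell, and the summed level of the 8 macrophage markers was 3.6 to 13.4 CPM in pericyte-like cells and 10.5 to 25.2 CPM in fibroblast-like cells. T cell or ILC-like cells held 34 Csf1r UMIs, of which 14 and 15 lay in 1 cell each.

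Kit, the receptor of KIT ligand, was found in LEC-like cells of the small intestine at a similar level in all 4 libraries. The levels were 20.1 and 18.4 CPM in the proximal replicates and 17.9 and 17.7 CPM in the distal replicates, from 335, 781, 96 and 684 UMIs. At 2500 UMIs per cell, 4.04% to 4.61% of these LEC-like cells had a Kit UMI, against 0.0831% to 0.172% of fibroblast-like cells of the same libraries. The LEC-like cells of the large bowel had 2 UMIs in 231 cells of the cecum, 1.57 CPM, and 8 UMIs in 262 cells of the large intestine, 3.53 CPM. The 95% Poisson intervals, which cover counting error only, reached 0.190 to 5.67 CPM and 1.52 to 6.95 CPM.

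Blood endothelial-like cells had 28.5 and 24.2 CPM of Kit in the proximal replicates, 22.3 and 26.0 CPM in the distal replicates and 41.5 CPM in the large intestine. The large intestine was the highest of these 5 libraries, and regions were not tested within this class. Kit was above fibroblast-like cells by 5.13 ± 0.21 on the log2 scale in blood endothelial-like cells (higher in 5 of 5 libraries, adjusted p = 9.73e-09) and by 4.40 ± 0.47 in LEC-like cells (higher in 6 of 6, adjusted p = 5.28e-05). With doublets left in the LEC-like value was 3.71, past the threshold. The level of Kit in free RNA was 0.246 to 7.74 CPM, above that of fibroblast-like cells in every library, and once it was subtracted 0 Kit UMIs were left in the fibroblast-like cells of both proximal libraries and 3 in those of the cecum, so that no fold is given. The summed level of the 8 mast cell markers was 46.4 to 164 CPM in blood endothelial-like, 0.785 to 8.38 CPM in LEC-like and 0.471 to 1.31 CPM in fibroblast-like cells, with Mcpt1, Mcpt4 and Tpsb2 at 0. In the endothelial classes this sum was nearly all Hdc, with 1050 UMIs against 6 of Cpa3, 1 of Cma1 and 0 of Ms4a2. Its part in the Kit values was not tested. LEC-like cells held 55.9% of the 3407 Kit UMIs of the kept cells, of which they were 16.5%. Their share of Kit UMIs was 70.6% in proximal replicate 2, where they were 33.1% of the cells. It was 2.5% in the large intestine (2.34% of the cells) and 10.5% in the cecum (1.77% of the cells).

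T cell or ILC-like cells, in which innate lymphoid cells are known to carry KIT, had the highest Kit level of the classes with at least 50 cells, at 39.9 and 99.5 CPM in the proximal and 94.2 and 57.1 CPM in the distal replicates. The 35 dendritic cell-like cells ranged from 0 to 349.7 CPM in libraries with under 50 cells each. Epithelial-like cells had 31.3 CPM of Kit in the large intestine, from 39 UMIs in 12 of 50 cells. The libraries with fewer epithelial-like cells had 0 Kit UMIs in them. Macrophage-like cells had 20.4 CPM of Kit in distal replicate 1, from 11 UMIs in 6 of 55 cells. In the libraries with fewer macrophage-like cells the level ranged from 0 to 44.2 CPM. Among the fibroblast-like cells, 130 of the Kit UMIs came from 17 of the 1816 other fibroblast-like cells of the large intestine, with up to 22 in 1 cell. The interstitial cell of Cajal-like gate held 5 cells in all, and 1 of them, in the large intestine, had 54 Kit UMIs.

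**Figure D3:**
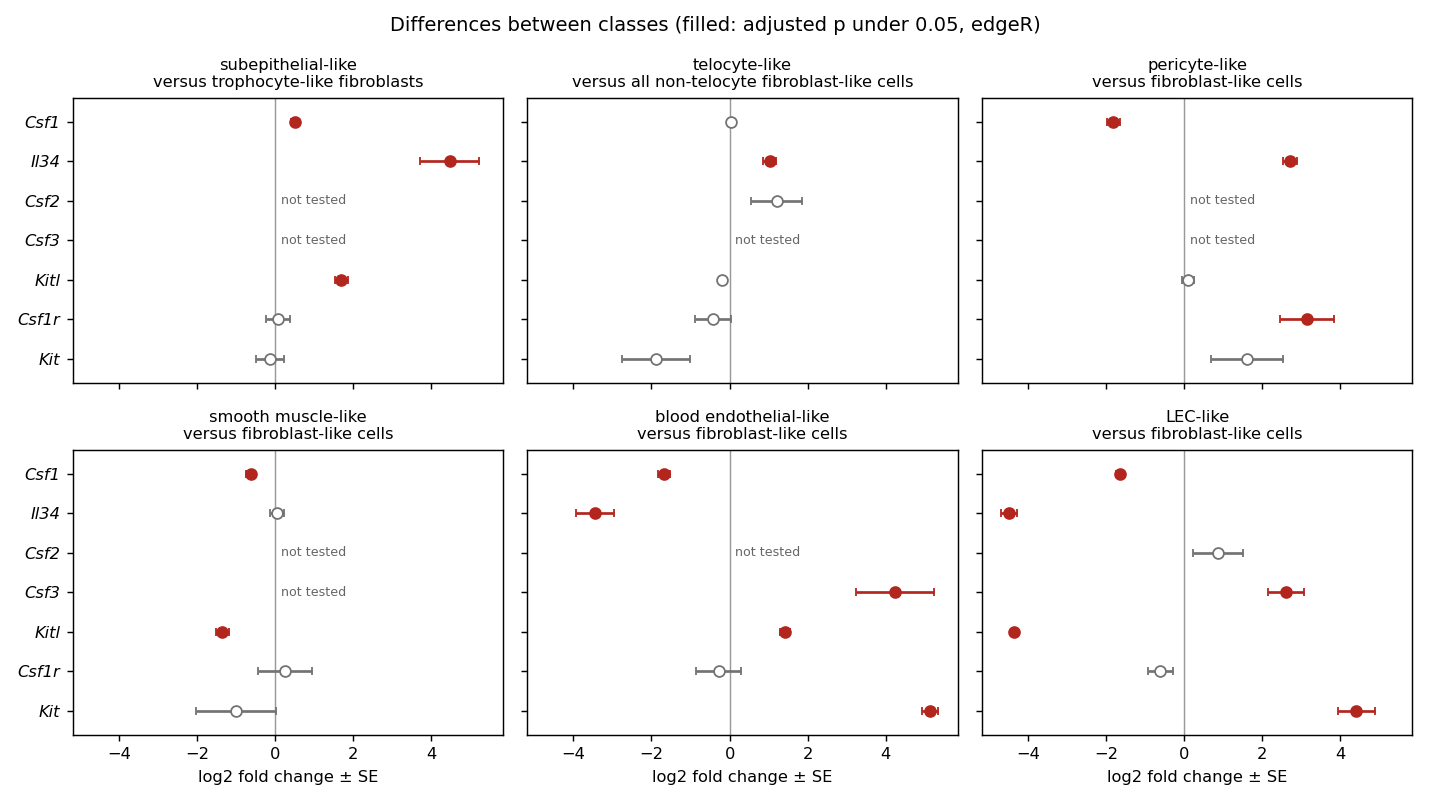
Fitted difference in level between cell classes on the log2 scale (points, with bars of ± 1 SE) for each gene in 6 class comparisons, where filled points have an adjusted p under 0.05. Kit is above fibroblast-like cells in both kinds of endothelium (4.40 and 5.13), while Kitl is below in LEC-like cells (-4.36) and above in blood endothelial-like cells (1.42).

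Csf2 and Csf3 were close to the limit of detection. Csf2 gave 8, 18, 6 and 1 UMIs in T cell or ILC-like cells of the proximal replicates 1 and 2 and distal replicates 1 and 2, or 16.0, 27.6, 14.5 and 3.00 CPM, with 16 of the 18 UMIs in 1 cell. In telocyte-like cells of the large intestine it gave 17 UMIs in 6 of 3837 cells, with 7 of them in 1 cell. Trophocyte-like cells of distal replicate 1 held 18 Csf2 UMIs, with 14 of them in 1 cell. Cells put into no class held 12, 14, 8 and 3 in proximal replicates 1 and 2 and distal replicates 1 and 2. Telocyte-like cells differed from non-telocyte cells in Csf2 by 1.21 ± 0.65 on the log2 scale (adjusted p = 0.218), and limma-voom gave 2.05 (adjusted p = 0.00878), while the adjusted p reached up to 0.579 under other alternatives.

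Csf3 gave 53 UMIs in LEC-like cells, of which 5 and 26 lay in the proximal libraries, 11 in either distal library and 0 in the large bowel. In distal replicate 1, the highest at 2.05 CPM, 9 of the 11 UMIs lay in 1 cell, and in proximal replicate 2 up to 6 did. It was above fibroblast-like cells, which held 63 UMIs, by 2.61 ± 0.46 on the log2 scale (higher in 4 of 6 libraries, with overlap; adjusted p = 0.00109). The level of Csf3 in free RNA, at 0.176 to 0.518 CPM, was above that of fibroblast-like cells, at 0.0396 to 0.174 CPM, in every library. Free RNA was also above LEC-like cells in proximal replicate 1 (0.518 against 0.300 CPM), the cecum and the large intestine. It was below them in proximal replicate 2 and both distal replicates. In blood endothelial-like cells the difference was 4.23 ± 1.01 (higher in 3 of 5; adjusted p = 0.00465), but 16 UMIs of 1 cell in distal replicate 1 carried it. Without that library it was 2.43 with an adjusted p of 0.148, and without proximal replicate 1 it was 4.85.

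The libraries also allowed the large bowel to be set against the small intestine, with 2 libraries against 4. The cecum and large intestine are different regions, and proximal and distal libraries were joined. The spread within each side therefore includes differences between regions. Cells were compared within fibroblast-like, subepithelial-like and LEC-like cells, of which the first 2 overlap in cells, and all of these comparisons use the same 6 libraries. The fibroblast-like class was made of different subsets in the 2 parts of the gut. Trophocyte-like cells were 51.2% to 67.4% of it in small intestinal libraries, against 4.31% (cecum) and 5.50% (large intestine). Universal-like cells were 1.14% to 2.06% against 21.8% and 10.6%, and telocyte-like cells 0.548% to 1.94% against 7.10% and 37.8%. For this class as a whole, a different level in the same cells and a different make-up therefore cannot be told apart. Csf1 in all fibroblast-like cells was 130.3 and 117 CPM in the proximal replicates, 133 and 125 CPM in the distal replicates, 195 CPM in the cecum and 177 CPM in the large intestine. Both large bowel libraries were above all 4 small intestinal ones, and the difference was 0.62 ± 0.13 on the log2 scale (adjusted p = 0.0153, edgeR). This was the 1 gene of 7 tested that passed, where 30.4% of all genes were called, 16.1% higher and 14.3% lower. Without the cecum the difference was 0.52 with an adjusted p of 0.0618, and among the libraries that share 1 set of hashtags with the cecum it came to 0.51 (adjusted p = 0.126).

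The same order appeared when Csf1 was read subset by subset. Both large bowel libraries were above all small intestinal ones in 6 of the 8 classes with at least 50 cells in every library, namely trophocyte-like, telocyte-like, universal-like, Adamdec1+, other fibroblast-like and smooth muscle-like cells. Of the genes with at least 5 CPM, 20.1%, 20.9%, 11.7%, 22.4%, 20.4% and 14.4% did so in these classes in that order. For the Adamdec1+ class, 3359 of 3398 cells of the cecum and 1977 of 1980 of the large intestine had no more markers than the gate needs, against 808 of 1672 and 808 of 1562 in the proximal and 1992 of 3367 and 1217 of 2031 in the distal replicates. The trophocyte-like cells compared also differed by region in their own markers, with Dkk2 at 575 to 1022 CPM in the small intestine and 32.8 and 21.7 CPM in the large bowel. In smooth muscle-like cells Csf1 was 69.1 to 86.3 CPM in the small intestine, 170.4 CPM in the cecum and 174 CPM in the large intestine. The 2 classes that overlapped were subepithelial-like cells, where the fitted difference was 0.31 ± 0.25 (95% interval -0.18 to 0.80, adjusted p = 0.354), and LEC-like cells, where it was 0.28 ± 0.16 (95% interval -0.03 to 0.59, adjusted p = 0.228). The level of Csf1 in free RNA had the same order, at 92.6 to 121 CPM in the small intestine against 181 CPM in the cecum and 137 CPM in the large intestine, and its part in the class levels was not tested beyond the subtraction of 10% of each sum, which kept the fibroblast-like result past the threshold.

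In subepithelial-like cells Il34 and Kitl were lower in the large bowel. The values given above for Il34 (245 to 626 CPM in the small intestine, 103 and 137 CPM in the large bowel) did not overlap, and the difference was -1.80 ± 0.40 on the log2 scale (adjusted p = 0.0124). For Kitl (629 to 844 CPM against 294 and 394 CPM) the difference was -0.95 ± 0.20 (adjusted p = 0.0103), also without overlap, and 41% of genes with at least 5 CPM lay lower without overlap in these cells. These were 2 of the 4 genes tested, where 37.9% of all genes were called, 20.5% higher and 17.4% lower, and without the cecum both missed the threshold, at -1.62 (adjusted p = 0.0949) and -0.76 (adjusted p = 0.0845). In the other 7 classes the libraries of the 2 parts of the gut overlapped for Kitl, as they did for Il34 in the 6 of them with at least 5 CPM.

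The subepithelial-like gate was met by different markers in the 2 parts of the gut. Lrat was 414 to 888 CPM in the small intestinal libraries and 2.42 and 0.557 CPM in the large bowel, and Itga8 392 to 648 CPM against 32.1 and 14.4 CPM, while Agt, Procr, Nrg1 and Wnt4 were higher in the large bowel. A lower level in the same cells and a class made of different cells therefore cannot be told apart for Il34 and Kitl. With these levels, subepithelial-like cells held 60.6% to 79.1% of the Il34 UMIs of a small intestinal library, but 25.1% in the cecum. There the 3398 Adamdec1+ cells had Il34 at 94.6 CPM, close to the 103 CPM of the 1761 subepithelial-like cells. In the large intestine subepithelial-like cells held 13.2%, and the 3837 telocyte-like cells 60.3%.

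Kit in LEC-like cells was lower in the large bowel by -2.76 ± 0.28 on the log2 scale (adjusted p = 0.000287, edgeR), with 17.7 to 20.1 CPM against 1.57 and 3.53 CPM, and 27.5% of genes with at least 5 CPM were lower without overlap. It was the 1 gene of 4 tested that passed, where 21% of all genes were called, 10% higher and 11% lower, and it passed under all alternatives that were run. Without the large intestine it was -3.61 (adjusted p = 0.00441). LEC markers themselves differed by region, with Reln at 4157 to 4841 CPM in the small intestine and 1991 and 1947 CPM in the large bowel, Ccl21a at 2224 to 3967 against 10948 and 11035 CPM, and Prox1 at 1035 to 1200 against 1022 and 948 CPM. The large bowel difference in Kit was more negative in LEC-like than in fibroblast-like cells, by -3.23 ± 0.56 (adjusted p = 0.0104), the 1 gene of 7 that passed, where 9.99% of all genes were called, 3.58% higher and 6.41% lower. This difference of differences missed the threshold with limma-voom (-2.66, adjusted p = 0.0547) and with free RNA subtracted (adjusted p = 0.0883). Without the large intestine the value was -0.26 (adjusted p = 0.97). Kit in fibroblast-like cells was 0.0561 CPM in the cecum and 1.39 CPM in the large intestine, against 0.544 to 0.883 CPM in the small intestine, and 130 of its 141 UMIs in the large intestine lay in 17 other fibroblast-like cells. The large bowel difference in Kit of fibroblast-like cells was 0.20 (adjusted p = 0.873), and without the large intestine -3.39 (adjusted p = 0.0109).

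**Figure D4:**
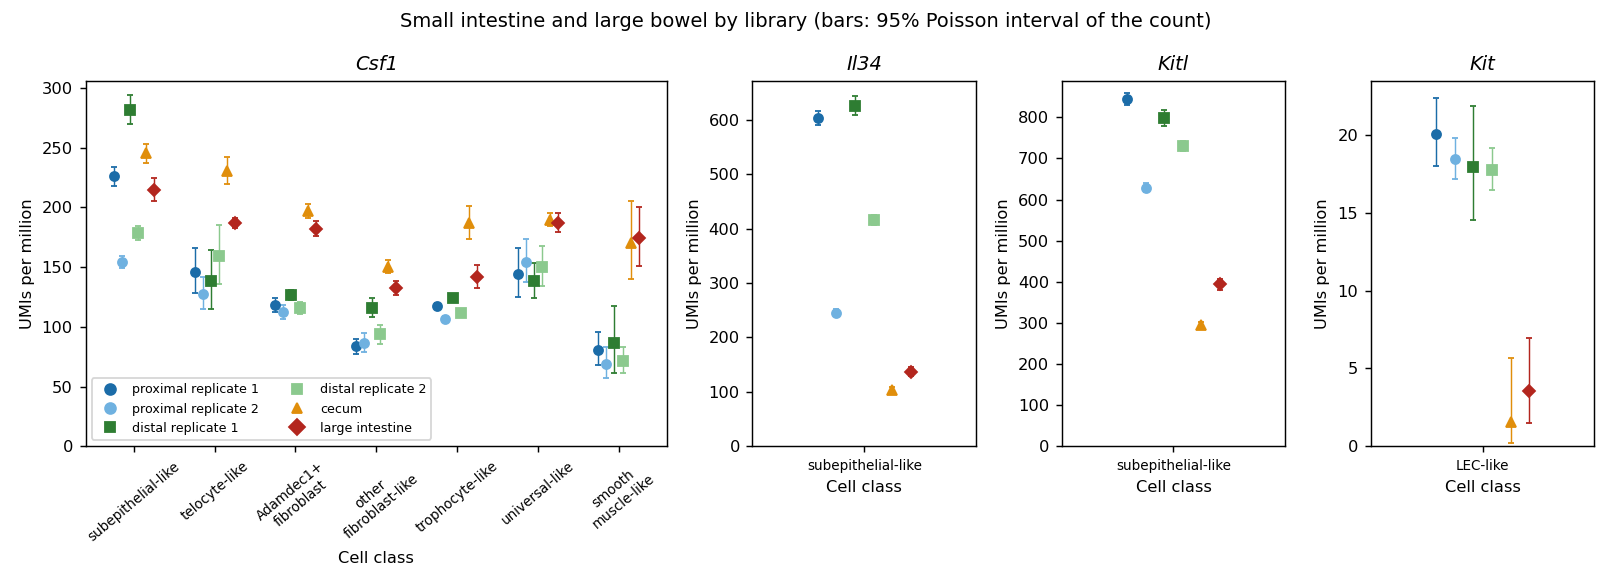
Level by library, in CPM with 95% Poisson intervals of counting error, of Csf1 in 6 fibroblast subsets and smooth muscle-like cells, of Il34 and Kitl in subepithelial-like cells and of Kit in LEC-like cells, colored by region. Csf1 in trophocyte-like cells is 106 to 124 CPM in the small intestine and 142 and 187 CPM in the large bowel, while Kit in LEC-like cells is 17.7 to 20.1 CPM against 1.57 and 3.53 CPM.

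Between the proximal and the distal small intestine, 2 libraries each, none of the genes passed the threshold in fibroblast-like, subepithelial-like, trophocyte-like or LEC-like cells with edgeR. The share of all genes called was 0.0103%, 0%, 0.0499% and 0% in these classes. At an unadjusted p under 0.05 there were 2 of the 5 genes tested in trophocyte-like cells and 0 in the other 3 classes, while among all genes tested 3.57%, 2.9%, 6.29% and 3.62% of those in fibroblast-like, subepithelial-like, trophocyte-like and LEC-like cells had such a p. These were Il34, which was lower proximally by -1.63 ± 0.22 on the log2 scale (5.96 and 4.12 CPM against 15.9 and 15.3 CPM, adjusted p = 0.103), and Kitl, by -0.43 ± 0.15 (152 and 137 CPM against 175 and 213 CPM, adjusted p = 0.66). DESeq2 gave an adjusted p of 8.02e-08 for Il34 and found no other gene of the 7 past the threshold in the 4 classes. The Il34 value also passed with the replicate number as a block (-1.65, adjusted p = 1.08e-23, with 1 residual degree of freedom), with no filter on low counts (adjusted p = 0.0339) and without proximal replicate 1 (-1.96, adjusted p = 0.0237). With doublets left in, the Il34 value was -0.93 (adjusted p = 0.768), and the free RNA of these libraries held more Il34 than their trophocyte-like cells, as given above.

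**Figure D5:**
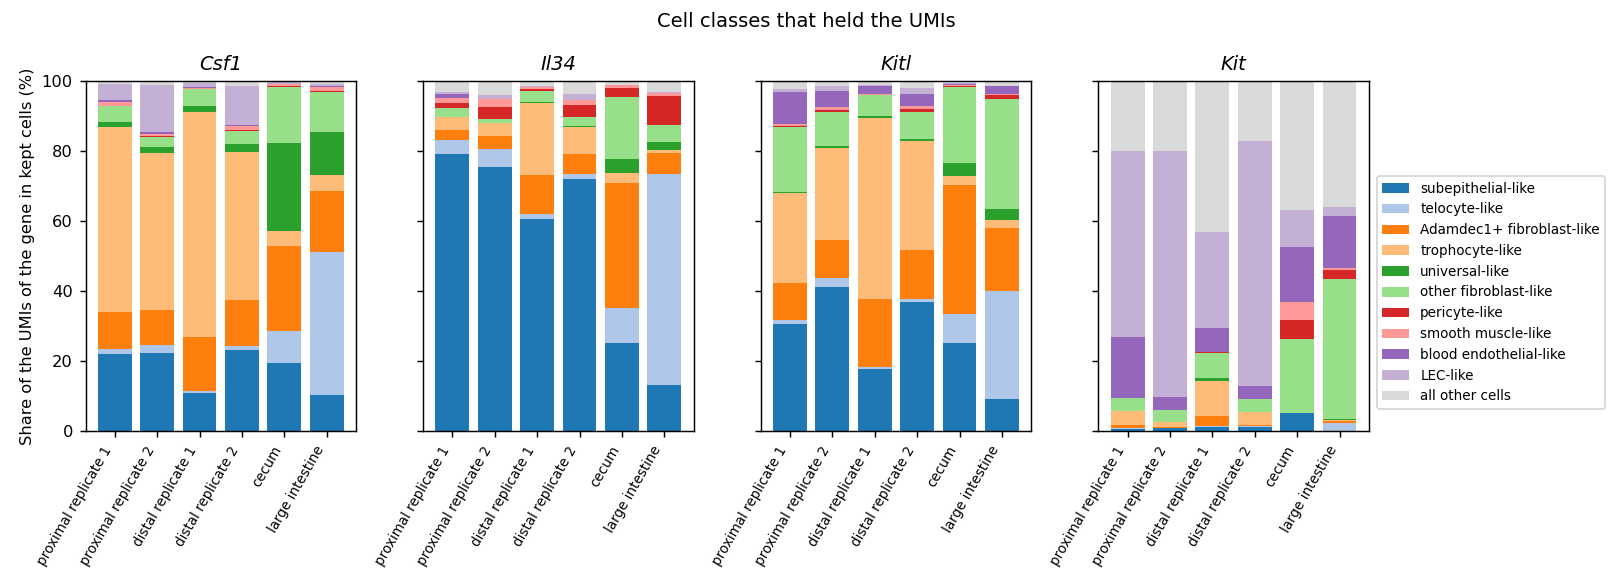
Share of the UMIs of Csf1, Il34, Kitl and Kit (1 panel each) that each cell class held, in percent of the gene's UMIs in a library, as stacked bars per library. Subepithelial-like cells held 79.1% of Il34 UMIs in proximal replicate 1 and 13.2% in the large intestine, and LEC-like cells held 70.6% of Kit UMIs in proximal replicate 2 and 2.5% in the large intestine.

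Other genes of these pathways were followed in 2 lists. The first held 14 receptors and related factors, among them the CSF2 receptor chains, the alarmins Il33 and Tslp and the FLT3 ligand gene Flt3l. In subepithelial-like against trophocyte-like cells 1 of its 8 tested genes was higher and 2 lower, with a median difference of -0.33 on the log2 scale against 0.02 over all genes, of which 24.5% were called higher and 24% lower. Flt3l, a growth factor of dendritic cells, was higher by 1.22 ± 0.29 (95.7 against 31.2 CPM), and Il33 was lower by -2.89 ± 0.43 (44.0 against 232 CPM). In blood endothelial-like cells 2 of 12 were higher and 6 lower, beside 20.8% and 34.8% of all genes, and Csf2rb, the shared chain of the CSF2, IL-3 and IL-5 receptors, was higher by 5.29 ± 0.21 (48.3 against 1.20 CPM). In telocyte-like against non-telocyte cells 2 of 12 were higher and 3 lower, beside 10.1% and 14.8% of all genes, and Il1rl1, the gene of the IL-33 receptor, was higher by 7.92 ± 0.95 (227 against 1.98 CPM).

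In the large bowel 3 of the 12 tested genes of that list were higher and 2 lower in fibroblast-like cells, beside 16.1% and 14.3% of all genes, with Il1rl1 higher by 3.72 ± 0.45 (39.2 against 3.05 CPM) and Flt3l lower by -1.17 ± 0.16 (20.2 against 48.0 CPM). The telocyte-like cells were 3837 of the 10142 fibroblast-like cells of the large intestine and between 96 and 195 in each small intestinal library. In LEC-like cells 2 of 5 were higher and 1 lower in the large bowel, beside 10% and 11% of all genes, and Il33 was lower by -2.53 ± 0.19 (84.4 against 474 CPM).

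The second list held 11 genes linked to the recruitment of monocytes, macrophages and mast cell precursors. They were chemokines, adhesion molecules and the chemokine receptors Cxcr2, Ccr2 and Cx3cr1. Both lists were chosen with earlier results of these data known, so their counts are not an independent test. In subepithelial-like against trophocyte-like cells 3 of 8 were higher and 3 lower, beside 24.5% and 24% of all genes, and Vcam1, the adhesion molecule for integrin-bearing leukocytes, was higher by 1.76 ± 0.15 (383 against 98.5 CPM). In large bowel against small intestinal fibroblast-like cells 5 of 11 were higher and 0 lower, beside 16.1% and 14.3% of all genes, with a median of 0.62 against -0.01 over all genes, in a class whose subsets differed by region as given above. The monocyte chemokines Ccl7 and Ccl8 were higher by 3.51 ± 0.37 (68.2 against 6.24 CPM) and 3.48 ± 0.26 (67.5 against 6.33 CPM). In subepithelial-like cells 4 of 8 were higher and 0 lower, where 20.5% of all genes were called higher and 17.4% lower. In LEC-like cells 2 of 8 were higher and 0 lower, where these shares were 10% and 11%. In blood endothelial-like cells 2 of 10 were higher and 4 lower than in fibroblast-like cells, beside 20.8% and 34.8% of all genes, and Cx3cl1, the ligand of the receptor on gut macrophages, was higher by 3.77 ± 0.20 (33.0 against 2.37 CPM). In telocyte-like against non-telocyte cells 0 of 11 were higher and 4 lower, beside 10.1% and 14.8% of all genes. Against fibroblast-like cells, 0 of 9 were higher and 6 lower in smooth muscle-like cells, beside 13.8% and 22.1%. For pericyte-like cells these counts were 1 and 4 of 8, beside 10.6% and 15.1%, and for LEC-like cells 2 and 3 of 11, beside 27.4% and 37.2%. All adjusted p-values behind these counts are from edgeR, and the lists were not recomputed without each library.

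Genes with the most similar pattern were sought over 67 sums of a class in a library, from 14 classes, among 11810 genes with a mean of at least 5 CPM. Sums of 1 library share its cells, depth and free RNA, so the Pearson r of log2(CPM + 1) is a description. For Csf1 the closest genes were Fkbp10 (r = 0.948), Serpinh1 (0.947) and P3h1 (0.941), and for Il34 they were Tbx2 (0.899), Pdgfrb (0.878) and Clstn2 (0.871). For Kitl the closest were Myo10 (0.922), Tcaf2 (0.910) and Ldlrad3 (0.883), and for Kit they were Prkch (0.859) and Dusp5 (0.844). Between the ligands r was lower, at 0.616 for Csf1 and Kitl, 0.561 for Il34 and Kitl and 0.511 for Csf1 and Il34.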

How the data were processed

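Sorted tdTomato+ cells of 6 libraries were measured. The authors aligned reads to mm39 with tdTomato added and deposited raw UMI counts of every barcode. The processing notes name Cell Ranger 8.1.0 and the matrices 8.0.1. The methods' doublet and ambient RNA removal and clustering were not part of the deposited counts and were not repeated with the same tools. The removal of clusters nearly without tdTomato transcripts, which the methods also name, was not done, so that such cells are kept here.

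The cell limits of the methods were applied (genes from 1000 to 7500, UMIs from 2500 to 40000, mitochondrial share under 10%), and doublets were removed with Scrublet in scanpy at an expected 0.8% per 1000 cells. It marked 4.90% to 11.3% of the cells of a library, while 8.39% to 13.8% carried several hashtags. A cell entered the lineage with the highest share of markers detected, with at least 4 of 8 (3 for lists of 4 to 6). Fibroblast subsets needed 4 markers, with telocyte-like first, and Adamdec1+ cells 3 of 4. Gate limits were set after the marker counts, but not the levels of the genes described, had been seen, and between 23.8% (subepithelial-like) and 72.5% (Adamdec1+) of a subset lay at its limit.

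UMIs were summed per library and class and tested with edgeR's quasi-likelihood test (TMM, filterByExpr with a minimum count of 10, Benjamini-Hochberg at 0.05 over all genes tested), with library as a block between classes and no block between regions. The SE is the fold change over the square root of F. The 95% intervals of fitted differences used this SE with a normal quantile. They take no account of the few libraries, so that they are narrower than intervals from a t distribution. The genes, the gene lists, the likeness rule and some subepithelial-like markers were chosen with earlier results of these data known. All 7 genes are named, list genes by the largest fitted change past the threshold, and like genes by Pearson r. Alternatives were limma-voom, DESeq2, its size factors, no filter, doublets left in, removal of cells with several hashtags, 10% of free RNA subtracted, stricter gates, 20 cells, block changes, 1 hashtag set, the small intestine alone and each library left out. Depth was 109675337 to 206827504 UMIs per library. Versions were Python 3.11.15, numpy 2.4.6, pandas 2.3.3, scipy 1.17.1, scanpy 1.11.5, matplotlib 3.10.9, R 4.3.3, edgeR 4.0.16, limma 3.58.1 and DESeq2 1.42.0.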

Additional observations from a re-analysis of the deposited data

Results flagged for a closer look

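In 57 sets of 4 small intestinal libraries (a gene in a class), the highest or lowest value was tested for a gap to the nearest library above 0.829 of the whole range. This was so in 6 sets, where chance gives about 1 in 20. Il34 in LEC-like cells was lowest in proximal replicate 2, at 2.15 CPM, and Il34 in blood endothelial-like cells was highest in proximal replicate 1, at 29.9 CPM. Csf3 in blood endothelial-like cells was highest in distal replicate 1, at 14.9 CPM from 16 UMIs in 1 cell. Kitl was lowest in distal replicate 1 both in blood endothelial-like cells, at 783 CPM, and in telocyte-like cells, at 247 CPM. Kit in fibroblast-like cells was highest in distal replicate 2, at 0.883 CPM from 88 UMIs.

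The large bowel difference in Kit was more negative in LEC-like than in fibroblast-like cells, by -3.23 on the log2 scale (test of the difference itself, edgeR adjusted p = 0.0104), a value that rests on the large intestine as given above.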

How the results depend on the processing

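Of 24 differences past the threshold, recomputed under 383 alternatives, 373 values kept direction and call, 10 lost the call and 0 changed sign. Of 53 differences not past it, under 780 alternatives, 10 gained a call in the same direction and 81 changed sign, 2 of them past the threshold (Kit between regions in fibroblast-like cells without the large intestine, given above, and Il34 in smooth muscle-like cells with stricter gates, -1.04 with an adjusted p of 0.0124, from 0.06). Counts of the 7 genes called moved as follows. In subepithelial-like against trophocyte-like cells 3 became 2 with no library block. In LEC-like cells 5 became 6 with several-hashtag cells removed (Csf1r, -1.02, adjusted p = 0.0101) and 4 with no library block, where Csf3 was not tested. In blood endothelial-like cells 5 became 4 with no library block, where Csf3 was not tested, and without distal replicate 1. In telocyte-like cells the count was 1 and rose to 2 with limma-voom, no filter or stricter gates. In smooth muscle-like cells 2 became 1 with no library block and 3 with stricter gates (Il34) and in the 4 small intestinal libraries (Kit, at 0 UMIs in all their smooth muscle-like cells, adjusted p = 0.0476). For the large bowel, 1 in fibroblast-like cells became 0 within the hashtag set of replicate 1 and ranged from 0 (without the cecum) to 2 (without the large intestine) when a library was left out, and 2 in subepithelial-like cells ranged from 0 (without the cecum) to 2. The difference of regional effects between LEC-like and fibroblast-like cells went from 1 to 0 with limma-voom (Kit -2.66, adjusted p = 0.0547) and with 10% free RNA subtracted (Kit, adjusted p = 0.0883), to 2 with no doublet removal (Il34, -1.35, adjusted p = 0.00755), and ranged from 0 (without the large intestine) to 1 without a library. The causes were not tested.

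Replicate numbers share hashtag sets, but with 2 pairs they were not taken as pairing. Same-numbered libraries deviated together, with correlations of 0.251 to 0.398. With a replicate block, Il34 between proximal and distal trophocyte-like cells was -1.65 (adjusted p = 1.08e-23, with 1 residual degree of freedom). The count there went from 0 to 1 with the block, with DESeq2, with no filter (adjusted p = 0.0339) and without proximal replicate 1 (-1.96, adjusted p = 0.0237), so that it ranged from 0 to 1 without a library. Apart from the subtraction of free RNA, which left 0 UMIs in proximal replicate 1, the Il34 value ranged from -1.96 to -0.93.

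Genes called in all depended more on the setting. Proximal against distal trophocyte-like cells gave 9 genes, 271 with DESeq2, 69 with no filter, 896 with the block and 30 to 57 without a library. The fibroblast-like, subepithelial-like and LEC-like cells gave 2, 0 and 0 and up to 463, 402 and 244. The large bowel gave 6069 (1745 to 7238) in fibroblast-like, 5889 (2377 to 6913) in subepithelial-like and 2977 (1142 to 3873) in LEC-like cells. Subepithelial-like against trophocyte-like cells gave 8054 (4259 to 10118), telocyte-like 4790 (2320 to 6070) and the difference of regional effects 2014 (822 to 2523). Csf2 and Csf3 had 149 and 146 UMIs in all, and Kit had 2 and 8 UMIs in the LEC-like cells of the large bowel.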
